A study of Rattus norvegicus with 65 samples.

Results

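The 41 ribosomal protein genes measured here were chosen by symbol among the 10411 genes that the array names through probe sets of 1 gene. A gene was taken when its current symbol was Rpl or Rps followed by a digit, or was Rplp0, Rplp1, Rplp2 or Rpsa. The Rps6k kinase genes (5 on the array) and the look-alike genes Rpl3l, Rpl7l1 and Rps27l were left out. Of the 41 genes, 28 encode proteins of the large ribosomal subunit and 13 proteins of the small subunit. Each gene was read from its probe set with the highest mean. A further 32 probe sets carry a ribosomal protein symbol together with other symbols, and no gene was named from them.

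The tumors were carcinogen-induced rat mammary tumors that had been passed serially through 5 generations of syngeneic hosts, animals of a matching genetic background. A primary tumor and its transplants 1 to 5 form a line, called a series, and the 11 series were 10, 13, 17, 19, 25L, 25R, 32, 33, 34, 36 and 42. There were 65 tumors with 1 array each, and series 10 is described up to transplant 4, its transplant 5 being not analysed here. The labels give no strain, age, carcinogen, treatment or invasive behaviour per tumor, and all tumors, primary ones included, were carcinogen-induced. Each line descends from 1 primary tumor, so its later tumors are not independent of each other, and nothing in the labels says which tumors came from separate animals. The p-values therefore measure the spread between these samples.

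A ribosome joins a small subunit, which reads the mRNA, to a large subunit, which forms the peptide bonds, and each holds ribosomal RNA and many proteins present in a single copy. Genes of these proteins are among the most strongly expressed of growing cells, and their mRNAs begin with a run of pyrimidines, through which growth signals such as mTOR raise or lower their translation. That step changes how much protein is made from an mRNA and would not be seen in an mRNA level. Ribosomal protein genes also have many processed pseudogenes, so that a short array probe may match more than its named gene.

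Sequence around the transcription start was looked at because it is a property the symbol rule did not use. RefSeq promoters (assembly GRCr8) matched 36 of the 41 genes by symbol. In 31 of the 36 (86.1%) a run of at least 5 C or T letters on the coding strand touched the 20 bases around the start, against 43.4% of 33469 RefSeq promoters. CGGAAG, the core that ETS factors such as GABP bind, was searched on both strands from 100 bases before to 50 after the start. It was present in 15 of 36 (41.7%), against 11.4% of all promoters. CTTTCC in the same window was present in 14 of 36 (38.9%) against 13.2%, and TATAAA in 3 of 36 (8.33%) against 7.27%. CTTTCC consists of pyrimidines and can lie inside a pyrimidine run, and the reverse complement of CGGAAG begins with 5 pyrimidines. A match is a description of the letters and not evidence of a bound factor.

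The 9 sequences below belong to the genes on which the results turn, and each gives 40 bases before the start and the first 20 bases of the transcript, 5′ to 3′ on the gene's own strand. Capitals mark the longest pyrimidine run that reaches the start region. The first 3 genes were highest on average in series 42, the next pair was higher in transplants than in primary tumors, and the last 4 were lower.
Rpsa (chr8:128728839-128728898, plus strand): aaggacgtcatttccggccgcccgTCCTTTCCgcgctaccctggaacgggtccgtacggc
Rpl14 (chr8:129163580-129163639, plus strand): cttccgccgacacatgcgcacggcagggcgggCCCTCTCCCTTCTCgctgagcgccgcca
Rpl4 (chr8:73566437-73566496, plus strand): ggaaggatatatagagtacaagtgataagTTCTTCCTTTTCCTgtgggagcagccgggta
Rpl21 (chr12:13386134-13386193, minus strand): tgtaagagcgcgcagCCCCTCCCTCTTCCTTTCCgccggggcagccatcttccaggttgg
Rpl39 (chrX:121195877-121195936, minus strand): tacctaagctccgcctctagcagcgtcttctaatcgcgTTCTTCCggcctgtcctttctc
Rpl34 (chr2:221962264-221962323, minus strand): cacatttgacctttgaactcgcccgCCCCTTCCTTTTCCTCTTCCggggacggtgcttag
Rpl12 (chr3:36661900-36661959, plus strand): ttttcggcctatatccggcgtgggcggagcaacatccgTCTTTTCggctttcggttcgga
Rps3a (chr2:173827023-173827082, minus strand): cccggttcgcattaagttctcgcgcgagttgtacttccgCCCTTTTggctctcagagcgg
Rpl37a (chr9:81748051-81748110, plus strand): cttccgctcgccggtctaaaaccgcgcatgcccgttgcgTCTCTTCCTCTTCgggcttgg
A run was present in all 9, from 7 bases in Rpl39, Rpl12 and Rps3a to 20 bases in Rpl34, and it was found both in genes that were higher and in genes that were lower. In the window searched, CGGAAG stood near Rpsa, Rpl14, Rpl4, Rpl39, Rpl34, Rps3a and Rpl37a and not near Rpl21 or Rpl12.

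The transplant 5 tumor of series 32 stood apart and was left out of the results, which rest on 64 tumors. Its deposited median intensity was 96.1, against 143 to 176 in the other 64. After scaling to a common median, the level of the ribosomal protein genes there was 0.81 above their mean on the log2 scale, while it was 0.06 without rescaling. Its 5S ribosomal RNA control was at an intensity of 500 after scaling, against 124 to 267 in the others. Epithelial markers, taken as the mean log2 level of 12 genes such as Epcam and keratin 8, had series medians of 8.19 to 10.43 in 10 series and of 5.91 in series 42. Single tumors went down to 6.26 in series 34 and 7.04 in series 32, while the 6 tumors of series 42 had values of 5.84 to 6.20. In series 42 Cldn3, Cldn7, Krt18 and Krt19 were at the measurement floor in all 6, so the labelled mammary tumor tissue carried little of this epithelial signal in that line.

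All values below are log2 of the scaled probe set intensity, on which a difference of 1 is a 2-fold change, and the floor lies at 5.31. Brightness depends on the probes, so levels are compared between tumors and not between genes. Apart from Rpl30, Rps4y2 and Rpl39, every ribosomal protein gene had a mean between 11.61 and 12.83, close to the top of the array's range. The highest means belonged to Rpl3 (12.83), Rpl27a (12.82) and Rpl7a (12.81), proteins of the large subunit. The lowest belonged to Rpl39 (8.56), Rps4y2 (6.57) and Rpl30 (5.39). Rpl30 lay under the filter of 6.35 and was not tested. Its primary tumors reached 5.71 at most and its transplants 6.48, with medians at the floor in both. The other 40 genes were tested, 27 of the large and 13 of the small subunit.

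The levels were nearly flat over the 64 tumors. The SD over tumors had a median of 0.16 over the 40 genes and ran from 0.09 for Rpl26 to 0.37 for Rps4y2. The median SD over all 8502 genes tested was 0.32, and over the 104 other genes with means of at least 11 it was 0.33. Those 104 were dimmer, with a median mean of 11.29 against 12.24 for the 40 genes, so brightness was not matched. Mitochondrial ribosomal protein genes, 71 of them, had a median SD of 0.26, translation factors 0.27 and ribosome biogenesis genes 0.32. Whether brightness near the top of the range compresses these differences was not tested.

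Transplants were first compared with the primary tumor of their own line, which asks what changed once a tumor had been passed to a new host. Of the 40 genes, 6 passed the test (limma, Benjamini-Hochberg adjusted p under 0.05 over 8502 genes), 2 higher and 4 lower in transplants. Of all genes tested, 10.7% passed, 5.12% higher and 5.61% lower. The median difference over the ribosomal protein genes was 0.02, with 23 of 40 above 0, and over all genes it was 0.01. The differences ran from -0.16 to 0.27, and their median size was 0.05, against 0.10 over all genes.

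**Figure D1:**
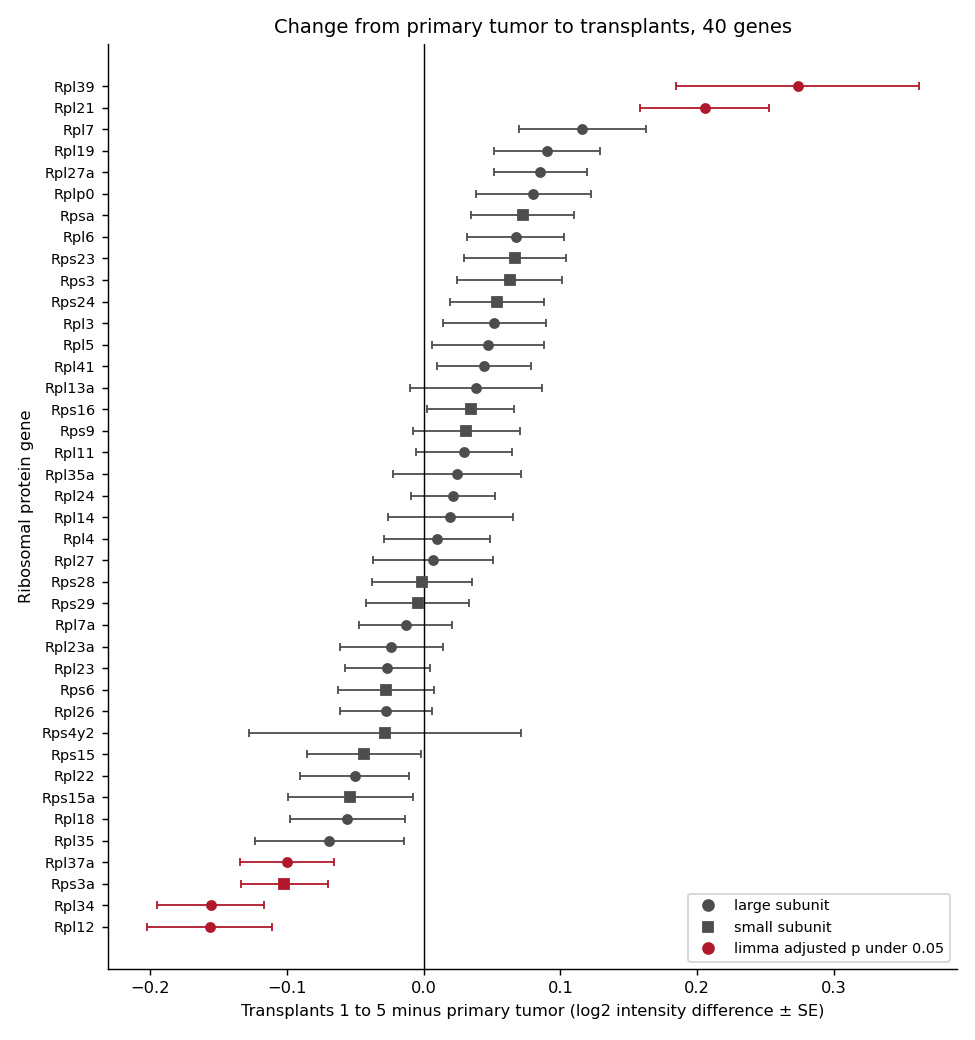
Difference in log2 intensity between transplants 1 to 5 and the primary tumor, within series, for the 40 ribosomal protein genes tested (64 tumors). Points are limma estimates with their standard errors, circles mark the large and squares the small subunit, and the 6 red genes passed the test, from Rpl12 at -0.16 to Rpl39 at 0.27.

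Rpl21, a large subunit protein, rose. Its 11 primary tumors lay between 11.40 and 11.72 with a median of 11.51, and its 53 transplants between 11.40 and 12.32 with a median of 11.70. The groups overlapped, and the highest primary tumor, that of series 10, lay above the transplant median. Within lines, the mean of the transplants was above the primary tumor in 9 of 11. The difference reached 0.57 in series 17 and 0.52 in series 19, while series 13 and 33 each stood at -0.01. The mean difference was 0.21 ± 0.05 (SE; limma adjusted p = 0.0032). By generation the mean level was 11.54 ± 0.10 (SD, n = 11) in primary tumors, 11.66 ± 0.14 at transplant 1, 11.81 ± 0.25 at transplant 2, 11.75 ± 0.19 at transplant 3, 11.69 ± 0.23 at transplant 4 and 11.78 ± 0.22 (n = 9) at transplant 5.

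Rpl39, a small protein in the exit tunnel of the large subunit, rose as well, from a dimmer probe set. Its primary tumors lay between 7.93 and 8.68 with a median of 8.35, and its transplants between 8.0 and 9.40 with a median of 8.62. These ranges overlapped over most of their length, and the single highest tumor was transplant 2 of series 32. The transplant mean was above the primary tumor in 9 of 11 lines, by 1.00 in series 17 and by 0.54 in series 32, and it differed by -0.05 in series 25L. The mean difference was 0.27 ± 0.09 (SE; limma adjusted p = 0.0381). In series 25L, Rpl39 stood at 9.08 in transplant 2 and between 8.0 and 8.07 in transplants 3 to 5. The call was lost without any 1 of series 10, 13, 17, 19, 32 or 33, 6 of the 11 lines, with adjusted p-values from 0.0511 without series 13 to 0.165 without series 17, where the difference was 0.20.

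Rpl34, another large subunit protein, fell. Its primary tumors lay between 12.22 and 12.42 with a median of 12.27, and its transplants between 11.83 and 12.44 with a median of 12.17. The highest tumor of the transplants, in series 33, stood level with the highest primary tumor, and the lower end of the transplants reached further down. The transplant mean was below the primary tumor in all 11 lines, from -0.35 in series 25L to -0.05 in series 33. The mean difference was -0.16 ± 0.04 (SE; limma adjusted p = 0.0070).

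The other genes that fell did so by small amounts. Rpl12, which sits in the stalk base of the large subunit where elongation factors land, ran from 11.76 to 12.52 in primary tumors (median 12.29) and from 11.72 to 12.35 in transplants (median 12.07). It was lower in the transplants of 10 lines and higher by 0.33 in series 42, whose primary tumor held the lowest of the primary values. Rps3a, a small subunit protein, ran from 12.52 to 12.79 in primary tumors (median 12.61) and from 12.32 to 12.77 in transplants (median 12.51), and was lower in 9 lines. Rpl37a, of the large subunit, ran from 12.44 to 12.85 (median 12.57) and from 12.27 to 12.76 (median 12.48). The ranges overlapped in all 3 genes. The limma differences were -0.16 ± 0.05 for Rpl12 (SE; adjusted p = 0.0212), -0.10 ± 0.03 for Rps3a (adjusted p = 0.0318) and -0.10 ± 0.03 for Rpl37a (adjusted p = 0.0494). Leaving out 1 line ended the call for Rpl12 without series 13, 25L, 25R, 32 or 33 (adjusted p up to 0.0730) and for Rps3a without series 17, 25L, 25R, 33, 36 or 42 (up to 0.0905). The call for Rpl37a held only without series 13 or 34 and otherwise reached up to 0.123, while Rpl21 and Rpl34 passed without each line in turn.

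No ribosomal protein gene passed when each series gave a single value, the difference between its transplant mean and its primary tumor. By limma 0 of 40 passed, against 1.91% of all genes, with adjusted p of 0.103 for Rpl34, 0.114 for Rpl21 and 0.120 for Rpl39. An unadjusted p under 0.05 was found in 5 of the 40, and the share of all genes at that threshold was not counted. With quantile normalization, which gives all arrays 1 distribution, Rpl12, Rpl34, Rpl37a and Rps3a passed and all 4 were lower, and the median over the members turned to -0.02. Of all genes, 1075 of 8498 passed there, 44.8% of them higher.

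Transplant 5 against the primary tumor, over the 9 lines that had both, gave 2 of 40 genes past the limma test, while 11.1% of all genes passed (6.07% higher, 5.05% lower). Rpl21 was higher by 0.26 ± 0.06 (SE; adjusted p = 0.0064), in 8 of 9 lines. With quantile normalization it was 0.19 with an adjusted p of 0.108. Rpl34 was at -0.23 ± 0.05 (SE; adjusted p = 0.0037), and it was below the primary tumor in all 9. With all 65 tumors Rpl34 was at -0.13 with an adjusted p of 0.211. The Rpl34 tumors of transplant 5 ran from 11.83 to 12.32 with a median of 12.11, so that they still overlapped the primary tumors. The difference within a line was -0.59 in series 25L and -0.02 in series 17. The median over the 40 genes was 0.01 here, as over all genes. An unadjusted p under 0.05 was found in 6 of the 40, against 2260 of all 8502 genes tested. With 1 value per series neither gene passed (0 of 40 by limma, against 1.82% of all genes). The limma adjusted p was 0.150 for Rpl21 and 0.137 for Rpl34. In that run 2 of the 40 had an unadjusted p under 0.05, and the share of all genes at that threshold was not counted.

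**Figure D2:**
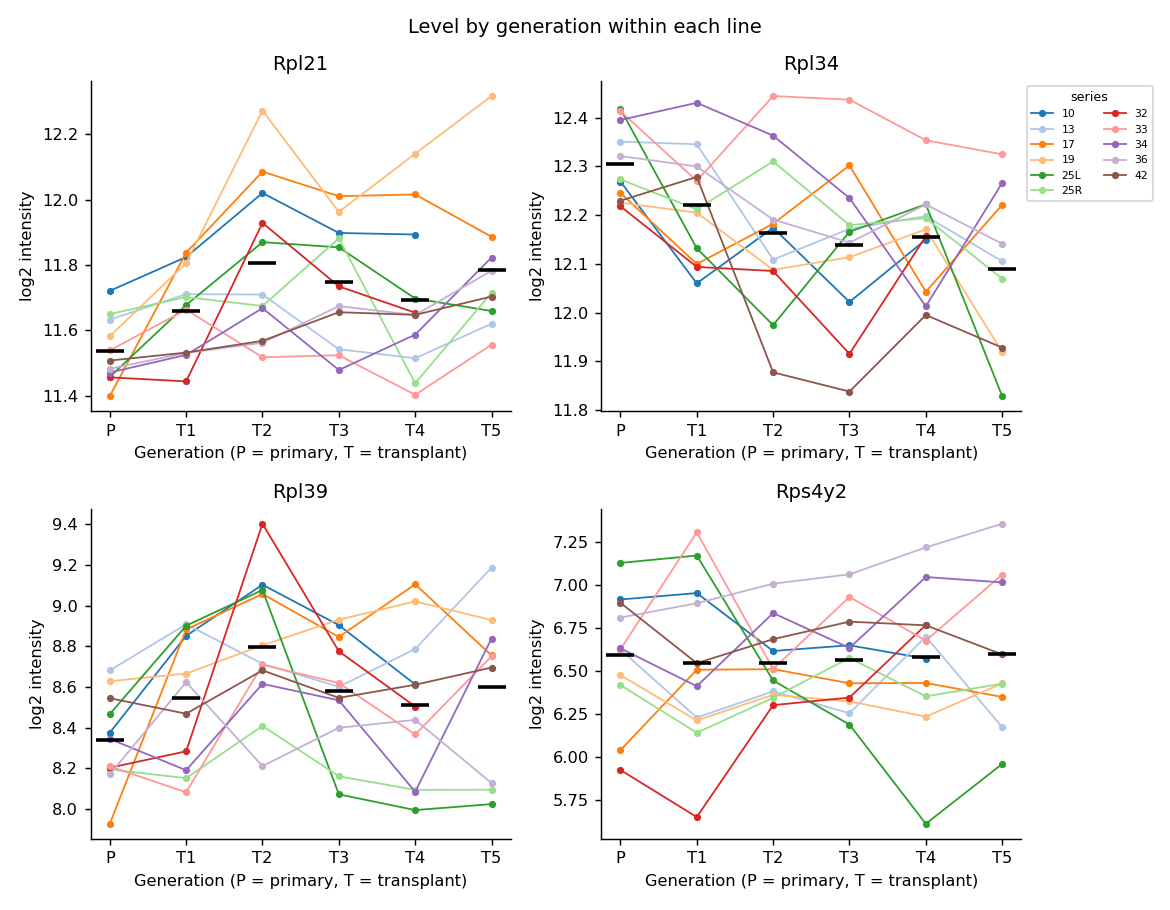
Log2 intensity of Rpl21, Rpl34, Rpl39 and Rps4y2 by generation (P, primary tumor; T1 to T5, transplants), with 1 coloured line per series and a black bar at the mean of each generation. Rpl21 rises and Rpl34 falls from the primary tumors to transplant 5 by 0.26 and -0.23, and the lines of Rps4y2 cross, from a slope of -0.33 per transplant in series 25L to 0.34 in series 32.

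A steady change with passage was not detected in any ribosomal protein gene. The linear slope over transplants 1 to 5, which does not use the primary tumors, passed the limma test in 0 of 40 genes, while 0.847% of all genes passed (0.494% rising, 0.353% falling). The slopes ran from -0.03 to 0.02 per transplant. Of the 40 genes Rpl34 alone had an unadjusted p under 0.05, against 1640 of all 8502 genes tested. It had the lowest slope at -0.03 ± 0.01 (SE, limma adjusted p = 0.139). Its mean went from 12.31 ± 0.08 (SD, n = 11) in primary tumors to 12.22 ± 0.12, 12.16 ± 0.17, 12.14 ± 0.17 and 12.16 ± 0.11 at transplants 1 to 4 and 12.09 ± 0.17 (n = 9) at transplant 5.

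Lines differed in slope for 1 of 40 genes, Rps4y2, by the limma interaction test (adjusted p = 0.0028), while 21.1% of all genes passed. Rps4y2 encodes a form of the small subunit protein S4. Series 25L went from 7.17 at transplant 1 through 6.45, 6.19 and 5.61 to 5.96 at transplant 5, a slope of -0.33 per transplant. Series 32 went the other way, from 5.65 through 6.30 and 6.35 to 6.77 at transplant 4, a slope of 0.34. In series 36 the 6 tumors lay in order of passage, from 6.81 in the primary tumor to 7.36 in transplant 5, with a slope of 0.11 per transplant. The slopes of the other 8 lines ran from -0.11 in series 10 to 0.14 in series 34. Rps4y2 was dim, with tumors between 5.61 and 7.36, and without series 25L its adjusted p was 0.0918. The count of 1 became 12 of 40 with all 65 tumors, where 2067 of all 8499 genes passed. It became 14 of 40 with array weights whose estimation stopped before it converged, where 5948 of all 8502 genes passed.

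Differences between lines were the larger part of the variation. With generation allowed for, 32 of 40 genes differed among the 11 series (limma F test, adjusted p under 0.05), 21 of 27 in the large and 11 of 13 in the small subunit, while 85% of all genes did. Between series lay a median of 56.0% of the variance of a ribosomal protein gene, against 43.9% over all genes, and between generations 3.95%, against 6.04%. Over the 104 other genes with means of at least 11, the medians were 54.3% between series and 5.90% between generations. The 8 genes that did not pass were Rpl3, Rpl5, Rpl13a, Rpl26, Rpl35, Rpl41, Rps15a and Rps24. For Rpl26 the series means spanned only 1.10-fold, from 12.39 in series 36 to 12.53 in series 33. The widest spans were 1.93-fold for Rpl14, 1.83-fold for Rpsa and 1.82-fold for Rps4y2.

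Ranked by the share of their variance that lay between series, the first 10 genes were Rpsa (85.8%), Rpl4 (82.7%), Rpl14 (82.1%), Rpl18 (78.0%), Rps3 (74.6%), Rpl24 (73.5%), Rpl27a (73.2%), Rpl22 (71.7%), Rps16 (71.5%) and Rpl19 (71.2%). In 9 of them the highest line mean was that of series 42, and for Rpl19 it was that of series 33. With quantile normalization this held for Rpsa, Rpl14 and Rpl4, while the other 6 of the 9 exceeded the mean of the other lines there by -0.03 (Rpl24) to 0.15 (Rpl18). How many of all genes had their highest mean in a given line was not counted. Without series 42, 5777 of all 8508 genes differed among series, against 7228 of 8502 with it, and 32 ribosomal protein genes did so in both. Rpl18 averaged 12.48 in series 42 and 11.87 in series 17, the lowest line. Rpl27a averaged 13.11 in series 42 and 12.68 in series 19. Rps3, which lies at the mRNA entry of the small subunit, averaged 12.26 in series 42 and 11.79 in series 25L. For Rpl24 the difference among series did not pass with quantile normalization or without rescaling (limma adjusted p of 0.117 and 0.0537).

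Over the 40 tested genes, series 33 held the highest line mean for 14, series 42 for 11 and series 34 for 6. Series 19 held the lowest for 11 and series 17 for 8. The level of the whole group, taken in each tumor as the median deviation of the 40 tested genes from their means, was 0.13 ± 0.06 (SD, n = 6 tumors) in series 33, 0.12 ± 0.07 in series 34 and 0.08 ± 0.05 in series 42. The lowest lines were series 19 at -0.10 ± 0.04 and series 17 at -0.08 ± 0.06. The order rests on how the arrays are scaled. The deposited arrays of series 42 had medians of 143 to 147, against a median of 164 over the other tumors, so that scaling to a common median lifts its values. Without rescaling the level in series 42 was -0.07, and with quantile normalization it was -0.14. Series 19 moved from -0.10 to -0.04 and 0.05 in the same order. Series 33 was above 0 in all 3, at 0.13, 0.13 and 0.06.

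**Figure D3:**
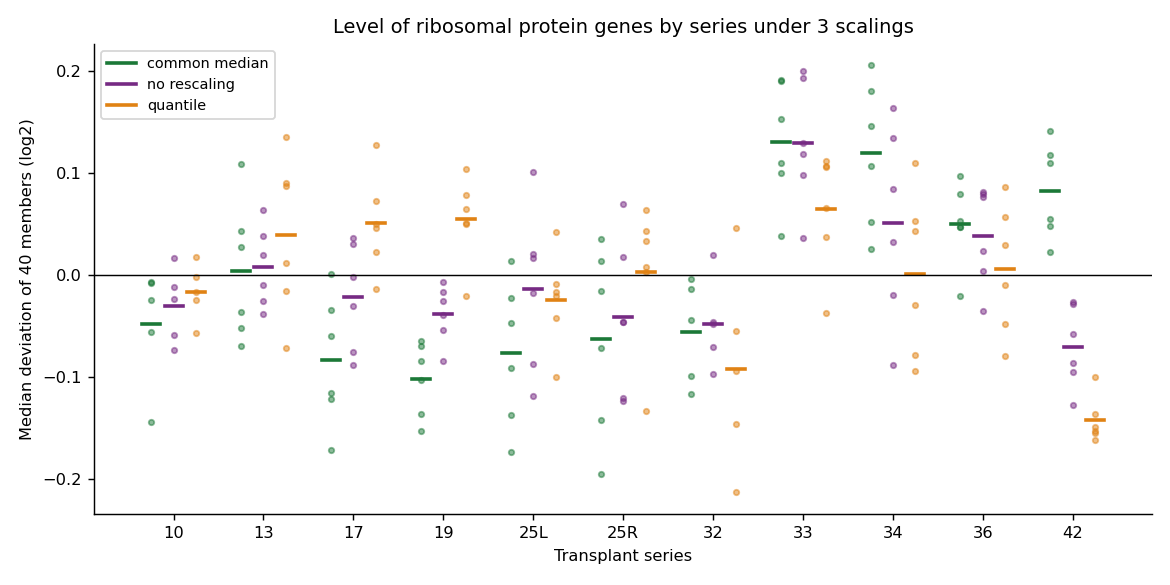
Median log2 deviation of the 40 tested ribosomal protein genes from their means, by series, with 1 point per tumor (64 tumors) and a bar at the series mean, for arrays scaled to a common median, not rescaled, or quantile normalized. Series 42 moves from 0.08 to -0.07 and -0.14, while series 33 is above 0 under all 3.

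Rpsa, Rpl14 and Rpl4 had a higher mean in series 42 than in any other line under all 3 scalings. Only for Rpsa did no single tumor overlap under all 3. Rpsa encodes a small subunit protein that also serves as a laminin receptor, and Rpl14 and Rpl4 encode large subunit proteins, Rpl4 with an arm that lines the exit tunnel. In series 42, Rpsa stood at 12.76 in the primary tumor and at 13.11, 13.18, 13.15, 13.18 and 13.09 in transplants 1 to 5. The 58 tumors of the other lines ran from 12.06 to 12.66 with a median of 12.35, so that no tumor of series 42 overlapped them.

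For Rpl14, series 42 had 11.85 in the primary tumor and 12.35, 12.42, 12.36, 12.35 and 12.41 in transplants 1 to 5. The other 58 tumors ran from 11.21 to 11.88 with a median of 11.54. The 5 transplants lay above all of them, and the primary tumor of series 42 lay within their range, just under transplant 1 of series 13.

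For Rpl4, series 42 had 12.44 in the primary tumor and 12.60, 12.67, 12.79, 12.74 and 12.70 in transplants 1 to 5. The other tumors ran from 11.71 to 12.36 with a median of 12.07, and no tumor of series 42 overlapped them. In all 3 genes the primary tumor was the lowest of the 6 in series 42. With quantile normalization the lowest series 42 value of Rpl4 was 12.28 and the highest elsewhere 12.35, so that they overlapped there.

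**Figure D4:**
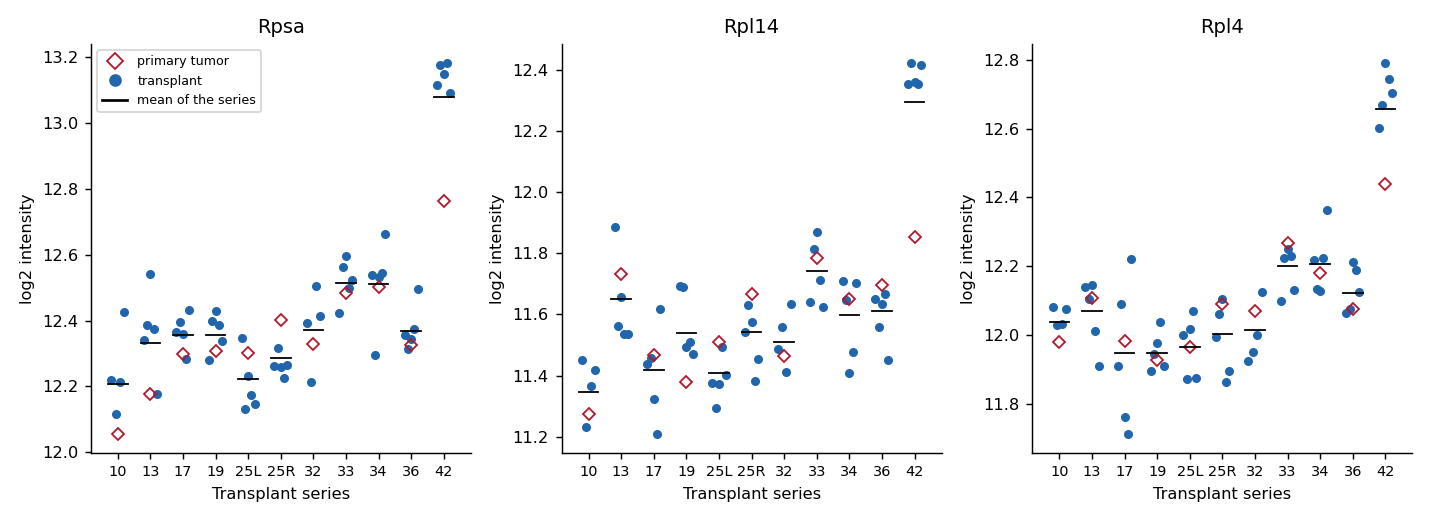
Log2 intensity of Rpsa, Rpl14 and Rpl4 in each of 64 tumors by series, with red diamonds for primary tumors, blue points for transplants and a bar at the series mean. The tumors of series 42 stand above the rest, except its primary tumor for Rpl14 (11.85), and that primary tumor is the lowest of the line in each panel.

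The mean of series 42 exceeded the mean of the other lines by 0.76 for Rpl14, 0.73 for Rpsa and 0.61 for Rpl4. Without rescaling these were 0.59, 0.56 and 0.44, and with quantile normalization 0.46, 0.53 and 0.40, in the same order. The limma F test among series gave adjusted p-values of 5.15e-15 for Rpsa, 2.80e-12 for Rpl4 and 5.88e-13 for Rpl14. That test covers all series and does not set series 42 against the rest. The 3 genes rank first by share of variance between series in the same tumors, so small p-values follow from that choice. Rpsa has 3 probe sets, and the other 2 had means of 12.43 and 11.38 in series 42 and of 11.60 and 10.70 elsewhere. The first of these did not overlap, while in the second the lowest tumor of series 42 stood at 11.03 and the highest other tumor at 11.22. The second probe set of Rpl14 was dim and averaged 7.0 in series 42 and 6.64 elsewhere, with overlap. Over all 40 genes, 2 had every tumor of series 42 above every other tumor, and 3.19% of all genes tested did.

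The promoters of Rpsa, Rpl14 and Rpl4 lie on chromosome 8 of GRCr8, and no other ribosomal protein gene matched here does, which was noticed after their values were seen. Genes beside them in the RefSeq order were therefore read, 10 tested genes on each side that are not ribosomal protein genes. They were read only with arrays scaled to a common median, which lifts the values of series 42. Around Rpsa the median difference of series 42 from the other lines was 0.40, with 16 of 20 neighbours higher. Around Rpl14 it was 0.28, with 15 of 20 higher, and around Rpl4 0.19, with 15 of 20 higher. The Rpsa and Rpl14 stretches share neighbours. Of the 42 distinct genes, 32 were higher in series 42, and 3 (Oxsr1, Ss18l2 and Map2k5) had every series 42 tumor above every other. Over all genes tested the median difference was 0.07, and 55.9% were higher. The neighbours of the other 37 genes had medians from -0.37 to 0.61, and the middle of these medians was 0.05. The highest was around Rps16, on chromosome 1. Whether the 3 stretches differ from those around other ribosomal protein genes was not tested.

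**Figure D5:**
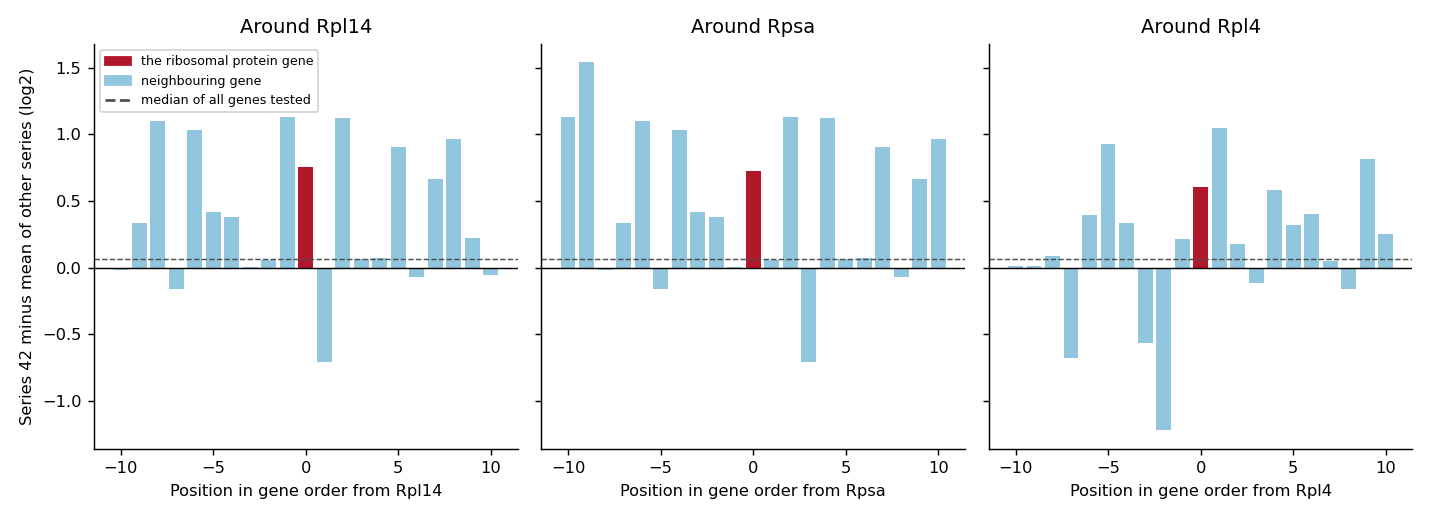
Series 42 minus the mean of the other series (log2) for Rpl14, Rpsa and Rpl4 (red) and for the 10 tested genes on each side in the gene order (blue), with a dashed line at the median of all genes tested, 0.07. The red bars stand at 0.76, 0.73 and 0.61, and 32 of the 42 distinct neighbours are above 0. All values rest on arrays scaled to a common median.

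By whole chromosome, 484 tested genes of chromosome 8 outside the group had a median difference of 0.17, and 11.4% of them had every series 42 tumor above every other, the highest share of the 21 chromosomes with at least 20 such genes. Chromosome 4 followed with 8.38% and chromosome 1 with 4.63%. Chromosome 1 carries 7 ribosomal protein genes, and its 1080 other genes had a median of 0.18. There, Rpl18 was higher in series 42 by 0.39, Rpl27a by 0.32, Rps3 by 0.30 and Rps16 by 0.27, while Rps15a and Rps9 differed by 0.05 and 0.06 and Rpl13a by -0.17. These rest on scaling to a common median; with quantile normalization the first 4 stood at 0.15, 0.08, 0.00 and 0.04. The chromosome medians and shares also rest on scaling to a common median and were not read under the other scalings. The number of gene copies was not measured here.

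Cell type markers were read beside this, and in bulk tumors fewer cells of a type and less RNA per cell cannot be told apart. The summed intensity of the 12 epithelial genes was 869 to 1196 in series 42 and 1404 to 32460 elsewhere, with no overlap. The sums of the other lists overlapped. That of the 8 macrophage genes was 10212 to 15243 (median 13247) in series 42 and 3458 to 14250 (median 6363) elsewhere. That of the 11 muscle genes was 3977 to 13882 (median 5876), against 1052 to 21389 (median 1551), with Myh4 at the floor in all 6 tumors. Sums of the 19 proliferation genes were 9877 to 15232, against 3481 to 14203. The part of these in the 3 genes was not tested, and since they come with the line, line and cell content cannot be told apart.

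The genes varied together to a degree. Over pairs of the 40 genes, the median correlation across 64 tumors was 0.37, and 0.34 after series and generation were removed, while over pairs of all genes it was 0.00 and 0.01. Tumors share arrays and scaling, so these are descriptions. Pairs of mitochondrial ribosomal protein genes had 0.37 and 0.40, translation factors 0.38 and 0.38, and ribosome biogenesis genes 0.42 and 0.41. After removal of series and generation, Rpl23a (0.79), Rps6 (0.77) and Rpl35 (0.71) followed the mean of the other ribosomal protein genes most closely. Rps4y2 (0.01) and Rpl39 (0.12), the dimmest of those tested, followed it least. Rpl21, which rose in transplants, had 0.37 after that removal and -0.31 before it.

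Other genes of the translation machinery were read from lists chosen by function. Of all genes tested, 10.7% passed in this comparison of transplants with primary tumors. Of 71 genes for mitochondrial ribosomal proteins, 1 was higher in transplants than in primary tumors and 1 lower. These were Mrpl28 at 0.20 ± 0.06 (SE; limma adjusted p = 0.0366) and Mrpl16 at -0.28 ± 0.07 (adjusted p = 0.0089). Of 45 ribosome biogenesis genes tested, 4 were higher and 1 lower, a share of 11.1% that lies near that of all genes. Ncl, nucleolin, was higher by 0.36 ± 0.09, and Fbl, the rRNA methylase fibrillarin, by 0.31 ± 0.08 in 11 of 11 lines. Polr1d, a subunit of RNA polymerases I and III, was higher by 0.30 ± 0.10. Noc2l was lower, at -0.19 ± 0.06. Of 39 translation factors, Eif4h alone passed, at 0.32 ± 0.08. Median differences were 0.01 for the mitochondrial list, 0.03 for biogenesis and 0.07 for the factors, against 0.01 over all genes.

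Of 19 growth control genes tested, 3 were lower in transplants and 0 higher by limma (15.8%, against 10.7% of all genes). An unadjusted p under 0.05 was found in 7 of 19, against 2225 of all 8502 genes tested. Tsc2, which restrains mTOR, was at -0.24 ± 0.05 and lower in 11 of 11 lines. Eif4ebp2, a repressor of cap-dependent translation, was at -0.27 ± 0.09, and Pik3ca, a catalytic subunit of PI3-kinase, at -0.42 ± 0.13. Rack1, a small subunit component with another kind of symbol, was at 0.04 ± 0.04 and did not pass.

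Other gene lists were measured in the same comparison of transplants with primary tumors. Of all 8502 genes tested, 10.7% passed there, and 2225 had an unadjusted p under 0.05. Of 19 proliferation genes, 9 were higher in transplants and 0 lower, with a median of 0.32, and Racgap1 was higher by 0.69 ± 0.18. Of 12 epithelial genes, 3 were lower (Cldn3 at -1.73 ± 0.31, Prom1 at -1.19 ± 0.17 and Muc1 at -0.65 ± 0.21) and 0 higher, with a median of -0.64. The epithelial sum ran from 1196 to 32460 in primary tumors and from 869 to 26978 in transplants. Among 10 fibroblast, 8 macrophage, 8 T and NK cell, 7 endothelial and 2 adipocyte genes tested, 0 passed limma, and 1, 2, 1, 1 and 0 had an unadjusted p under 0.05. Of 7 muscle genes, Myh1 was lower, at -0.36 ± 0.10. The log2 ratio of the 3′ to the 5′ Gapdh control, a measure of RNA integrity, had a median of 0.05 in primary tumors and 0.15 in transplants. The same ratio for the beta-actin control went the other way, with medians of 0.33 and 0.29. With the Gapdh ratio as a covariate, Rpl21 and Rpl34 alone passed. The part of these measures in the ribosomal protein differences was otherwise not tested.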

How the data were processed

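Total RNA from frozen tumor, 6 µg per array, was labelled with biotin and hybridised, per the labels' protocols. The authors deposited probe set intensity values on a linear scale, from 1 to 12011. The summary of probes and any normalization of arrays are not given in the sources used here. From these, 57 control probe sets were left out, and each of 65 arrays was scaled to a common median of 162 over 15866 probe sets. Values under the pooled 10th percentile were raised to it (39.8) before taking log2. Symbols came from the platform annotation, updated by gene identifier to GRCr8 where it matched (12748 of 12783 probe sets with 1 symbol), and 2 ribosomal protein genes kept the platform symbol. Genes with a mean under 6.35, the lowest 25% of probe sets, were not tested.

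One limma 3.58.1 fit (R 4.3.3) held generation and series for 64 tumors, with 48 residual degrees of freedom and Benjamini-Hochberg adjustment over 8502 genes. All tests were two-sided. The pairing by series comes from the design text, where each line descends from its primary tumor. Differences in slope were tested on transplants alone. The fit was checked on simulated data. Named genes were those past a threshold in the generation comparisons, the 10 with the most variance between series, those differing in slope, and the 3 brightest and 3 dimmest. Other lists name up to 4 genes past the threshold. The genes, lists and tests were chosen with earlier results of these data known. The number of arrays limits the precision.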

Additional observations from a re-analysis of the deposited data

Results flagged for a closer look

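Series 17 held 4 outlying values, all of its primary tumor, which lay farther from the nearest other tumor of its line than Dixon's limit allows. These were Rpl21 at 11.40 (next lowest 11.84), Rpl39 at 7.93 (next 8.76), Rpl27a at 12.42 (next 12.72) and Rps4y2 at 6.04 (next 6.35). The first pair are the genes that rose in transplants. The primary tumor of series 42 was likewise low for Rpsa, at 12.76 (next 13.09), and for Rpl14, at 11.85 (next 12.35).

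High values stood apart elsewhere. Rpl39 was at 8.41 in transplant 2 of series 25R, where the next was 8.20, and Rpsa at 12.50 in transplant 5 of series 36, where the next was 12.37. Among the transplant 5 tumors, Rpl21 was at 12.32 in series 19 (next 11.89) and Rpl14 at 12.41 in series 42 (next 11.70). With all 65 tumors, the level of the ribosomal protein genes was 0.81 in transplant 5 of series 32, outlying within its series and within its generation. In all, 12 of 108 groups examined held such a value, and chance flags about 1 in 20, or 5.4 of 108.

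The slope of Rps4y2 per transplant differed among lines (limma interaction, adjusted p = 0.0028), from -0.33 in series 25L to 0.34 in series 32.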

How the results depend on the processing

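Each result was recomputed with all 65 tumors, other scalings, floors, filters, probe set choices, weights and fits, and without each series in turn; fitting every probe set singly was added after the data were seen. Among these runs, the named differences between generations kept their direction. The count among series stayed between 29 and 38 ribosomal protein genes, apart from the fit of every probe set singly. There 62 of 77 probe sets with a ribosomal protein symbol passed.

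For transplants against primary tumors, 6 ribosomal protein genes and 912 genes in all became 2 ribosomal protein genes with all 65 tumors, 1 and 321 with array weights, 2 and 504 with the Gapdh covariate, and 3 with series 25L and 25R as 1 line. Without the replicate block of series the counts were 0 and 95, and with 1 value per series 0 and 162. Leaving out a series gave 2 (without series 33) to 6 ribosomal protein genes and 555 to 924 in all. For transplant 5, 2 and 945 became 1 ribosomal protein gene with all 65 tumors and 5 without rescaling, 277 genes in all with array weights, 0 and 37 with no replicate block and 0 and 155 with 1 value per series, and leaving out a series gave 2 to 3 and 454 to 946. For the slope, 0 ribosomal protein genes passed in each run, and 72 genes in all became 410 with all 65 tumors, 129 with quantile normalization, 37 with no filter, 139 with series 25 as 1 line and 126 with every probe set singly. With array weights, no replicate block or 1 value per series it was 0, and leaving out a series gave 1 to 338. For the difference in slope, 1 and 1794 became 12 and 2067 with all 65 tumors. The count of ribosomal protein genes was 0 with a filter at the median, where Rps4y2 was not tested. With series 25 as 1 line 1149 genes in all passed. Leaving out a series gave 0 (without series 25L) to 1 and 741 to 2030. With array weights they became 14 and 5948; the estimation of those weights stopped before it converged.

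Over all genes, the share of calls that were higher in transplants was 47.7%, and it was 36.2% without rescaling and 44.8% with quantile normalization. At transplant 5 these shares were 54.6%, 38.2% and 48.7%. Of the ribosomal protein genes, 1 of 5 called without rescaling and 0 of 4 with quantile normalization were higher.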

Other observations

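The 32 probe sets that carry a ribosomal protein symbol together with others were read as probe sets, in a fit of all 11899 probe sets above the filter that was added after the data were seen. Of these 32, 1 was higher and 1 lower in transplants than in primary tumors by limma, while 10.5% of all probe sets passed, and the median difference was -0.02. At transplant 5 the counts were again 1 and 1, and for the slope 0 passed. Among series, 26 of 32 differed, against 84.5% of all probe sets.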
